A study of Mus musculus with 6 samples.

Results

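Potassium channels of the voltage-gated, inward rectifier and leak classes, together with their auxiliary subunits, were followed in the newborn mouse cortex after deletion of the amino acid transporter gene Slc7a5. The genes were taken as all protein-coding genes of GENCODE M21 whose symbol starts with Kcn, without the calcium- and sodium-activated families Kcnn, Kcnma, Kcnmb and Kcnt. The rule gave 83 genes in 17 subfamilies among the 52550 identifiers in the tables, and each of the 83 had a row. Enough reads for a test were present for 59 of them. Libraries of polyadenylated RNA were made from 1 cortical hemisphere of a pup each, at postnatal day 2, from the strain labelled C57BL6/J. Knockouts were labelled Slc7a5fl/fl; Emx1Cre+ (n = 3) and controls Slc7a5fl/fl; Emx1Cre- (n = 3), so both genotypes carried the floxed alleles and the knockouts alone carried Cre. Effects of Cre and of the deletion therefore cannot be told apart. The design text speaks of biological replicates and calls the controls wild type. Emx1-driven Cre recombines in the progenitors of the dorsal forebrain, which give rise to excitatory neurons and astrocytes, and most cortical interneurons, microglia and vessels come from other lineages.

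A potassium channel lets potassium leave or enter a cell along its gradient and so sets the resting potential and ends the action potential. Voltage-gated subunits open on depolarisation, inward rectifiers pass current best near or below the potassium equilibrium potential, and tandem-pore leak channels are open at rest. Pore subunits share a selectivity filter, a short loop in which a threonine is followed after a gap by glycine, an aromatic or hydrophobic residue and glycine, and auxiliary subunits without a pore change gating or traffic. In the cortex, inward rectifier and leak currents of pyramidal neurons grow during the first postnatal weeks.

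The filter is the stretch that the pore subunits have in common. It is shown here for a selection of the genes with the highest level of their subfamily or with the clearest differences between genotypes. The coding sequence of each gene in GENCODE M21 (the transcript with the longest coding sequence) was read in frame on the coding strand. The forms searched were ACNNNNGGNTANGGN, ACNNNNGGNTTNGGN and ACNNNNNNNGGNTTNGGN, and a long match that ended at the same base as a short one was dropped. Capitals mark the match, and lower case the 15 bases on either side.
Kcna6: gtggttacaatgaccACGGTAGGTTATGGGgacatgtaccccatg
Kcnc1: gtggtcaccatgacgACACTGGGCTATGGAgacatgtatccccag
Kcnd2: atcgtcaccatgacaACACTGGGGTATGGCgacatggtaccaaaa
Kcnh3: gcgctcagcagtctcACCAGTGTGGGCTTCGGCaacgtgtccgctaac
Kcnj4: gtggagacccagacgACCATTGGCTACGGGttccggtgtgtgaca
Kcnj3: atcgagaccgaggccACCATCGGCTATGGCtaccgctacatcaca
Kcnj9: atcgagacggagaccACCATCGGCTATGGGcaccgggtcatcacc
Kcnk2, first pore domain: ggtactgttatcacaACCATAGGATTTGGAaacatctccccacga
Kcnk2, other pore domain: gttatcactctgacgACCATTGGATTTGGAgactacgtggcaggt
Kcnk10, first pore domain: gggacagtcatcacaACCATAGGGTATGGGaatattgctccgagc
Kcnk10, other pore domain: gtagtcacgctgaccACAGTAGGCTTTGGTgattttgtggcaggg
The voltage-gated and inward rectifier filters shown read glycine, tyrosine, glycine at their end, save Kcnh3 of the ether-a-go-go class. Kcnh3 has phenylalanine in the place of tyrosine, and serine (AGT) where the match of Kcna6 starts with threonine. Its match therefore starts 1 codon earlier, at a threonine that Kcna6 also has, in lower case, just before its own match. One of the forms was found in 69 of the 70 pore subunits, with Kcnj14 as the exception, and in 0 of the 13 auxiliary genes (Kcnab, Kcnip, Kcne and Kcnrg). Among 21562 protein-coding genes 424 held a form, which is 1.97%, and the 3 forms taken in the order above occurred in 0.538%, 0.802% and 0.691%. Of the 14 Kcnk genes, which carry a pair of pore domains in 1 chain, 11 held the match at least 2 times. A match describes letters and says nothing of channel function.

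Gene counts were 9851376, 10372582 and 9524407 in knockouts A, B and C, against 10077443, 8249436 and 9927206 in controls A, B and C. CPM are the reads of a gene scaled to the library's reads in tested genes, adjusted by its TMM factor. Slc7a5 itself (GRCm38 chromosome 8, 121881150 to 121907694, minus strand) was at 15.6, 9.37 and 11.4 CPM in the knockouts. The controls had 20.2, 40.7 and 26.1 CPM. The groups did not overlap, but the log2 change of -1.25 ± 0.28 (SE) did not pass the quasi-likelihood test of edgeR at a Benjamini-Hochberg adjusted p of 0.400, taken over all tested genes. Exons removed by Cre are not given in the labels, and the counts cover the whole gene. Reads outside annotated exons made up 27.4 to 27.9% of mapped reads in knockouts and 22.5 to 26.5% in controls, without overlap, and their part in the results was not tested. Libraries with the same letter deviated together from their group means, and both B libraries had Xist, the transcript of the inactive X chromosome, at 961 CPM in the knockout and 918 CPM in the control, while the other libraries had at most 2.95 CPM. The letter was therefore entered as a block in another fit, given beside the one on genotype alone, and there Slc7a5 had a log2 change of -1.22 and an edgeR adjusted p of 0.421. Markers of cortical excitatory neurons were present in every library, and their 12 genes summed to 3497 to 3735 CPM in knockouts and 3504 to 3827 CPM in controls.

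None of the 59 tested genes passed an adjusted p of 0.05 in edgeR's quasi-likelihood test in either direction, where all genes gave 0.0201% higher and 0.0134% lower in the knockout (14913 tested). With the letter as a block 0 of 59 passed as well (0.329% and 0.516% of all genes higher and lower), and in DESeq2 0 of the 48 with an adjusted p (0.104% and 0.113% of all genes). The smallest adjusted p was 0.473, with the letter block 0.0615 and in DESeq2 0.356. At an unadjusted p under 0.05, 7 genes were lower in the knockout (11.9%, against 3.81% of all genes) and 0 were higher (against 3.19%). With the letter as a block these numbers were 11 lower (against 6.46% of all genes) and 0 higher (against 5.44%). The log2 change was below 0 for 40 genes (67.8%, against 49.8% of all genes) and above 0 for 19 (32.2%, against 50.2%). Its median was -0.10 over the 59 genes and 0.0011 over all genes. Taken letter by letter, the median log2 difference between knockout and control was -0.092, -0.104 and -0.097 for A, B and C, against 0.0032, 0.0055 and -0.011 over all genes. Knockout and control libraries did not overlap for 10 genes with lower values in the knockout (16.9%, against 6.28% of all genes) and for 1 gene with higher values (1.69%, against 5.89%). Kcnj4, Kcnj3, Kcnj9, Kcnk10, Kcnk3, Kcnq5, Kcnd1, Kcnab3 and Kcne1l were among the 10.

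**Figure D1:**
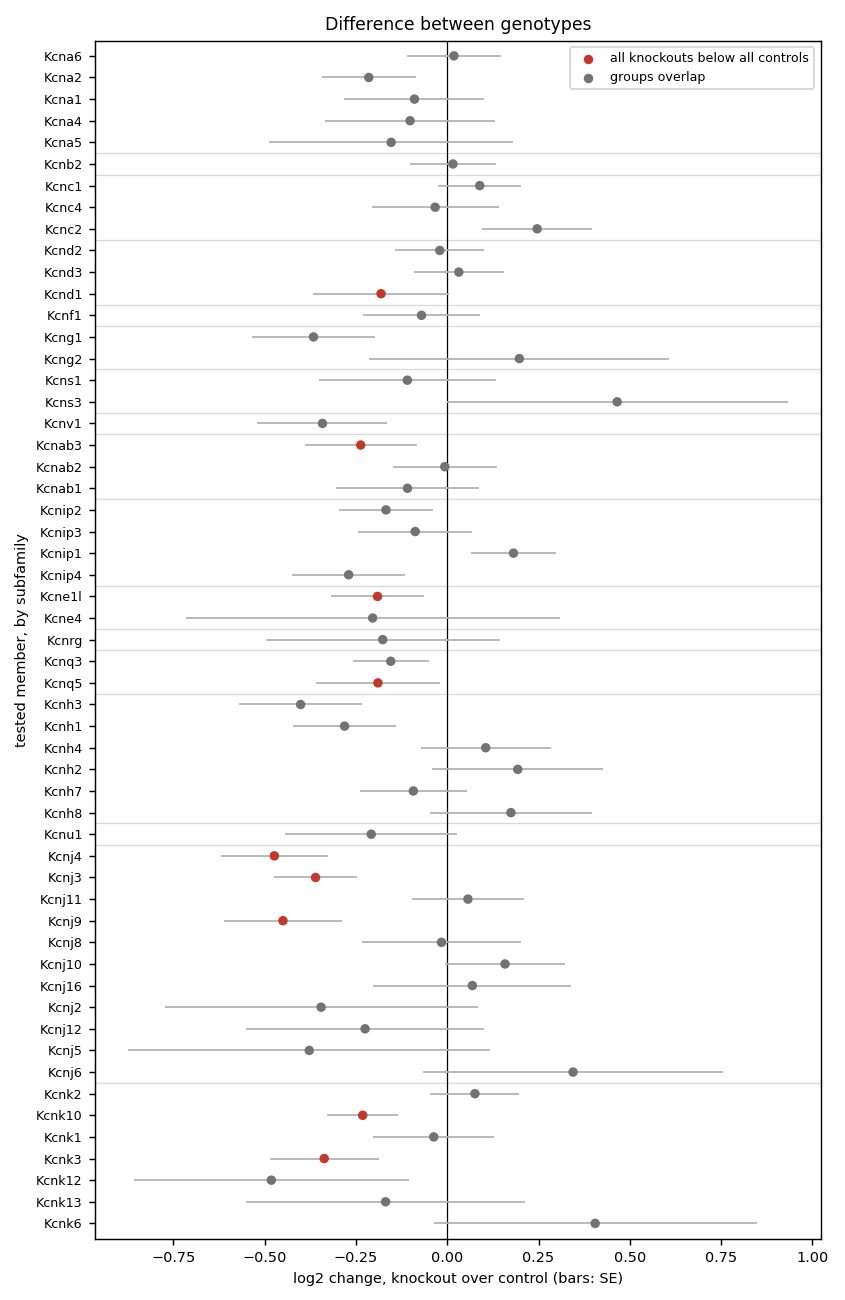
Log2 change between knockout and control (x axis) for 55 of the 59 tested genes, ordered by subfamily down the page; bars are the SE from edgeR, and red marks genes whose 3 knockout libraries all lay below the 3 control libraries. The values of 38 genes lie left of 0 and of 17 right of it, and none passed an adjusted p of 0.05.

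The precision differed with depth. Reads summed over all 6 libraries ran from 56 to 16561 for the tested genes. The 95% interval of the log2 change lay within 0.5 of 0 in both directions for 24 of the 59 and within 1 for 51 of the 59. Wholly below 0 lay 7 intervals and wholly above it 0. These restate the counts at an unadjusted p under 0.05, since the intervals come from the same test. The RNA came from whole hemispheres, in which fewer cells of a type and less RNA per cell cannot be told apart.

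Levels between genes were compared as CPM per kilobase of merged exons, a unit that allows for gene length. Averaged over the 6 libraries, 8 genes were at or above 10 CPM per kb, among them Kcna6 (29.3), Kcnd2 (20.6), Kcnj4 (19.8), Kcnk2 (18.9), Kcne1l (15.4), Kcnip2 (14.2) and Kcnk10 (11.0), and the 8 together made up 49.2% of the summed level of the 83 genes. From Kcnd2 down to Kcnk2, neighbours in this order differed by no more than the spread between libraries. Another 10 tested genes were below 1 CPM per kb. The summed level of all 83 genes was 303, 269.8 and 288 CPM per kb in knockouts A, B and C, against 319.7, 299 and 309 CPM per kb in controls A, B and C, and the groups overlapped.

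**Figure D2:**
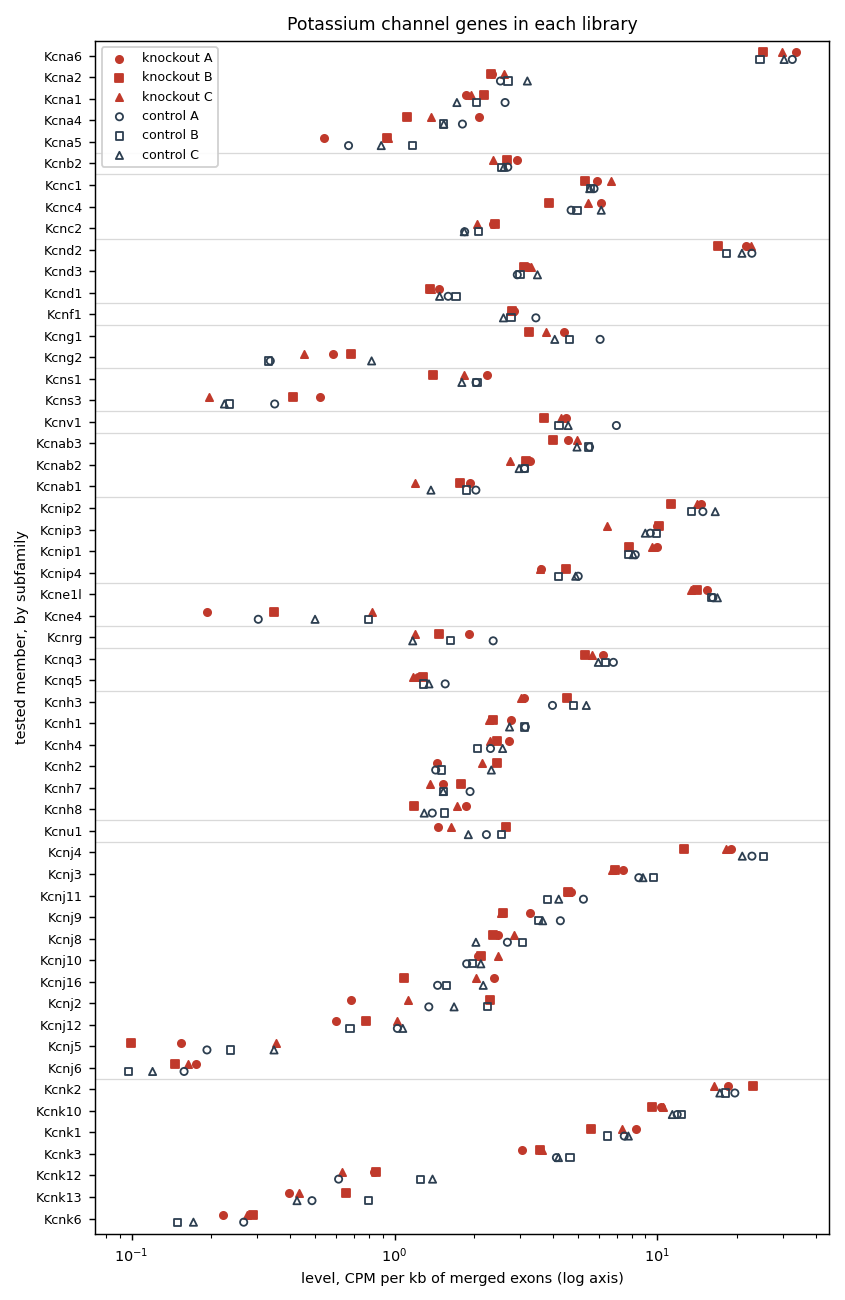
Level of 55 of the 59 tested genes in each library, in CPM per kb of merged exons on a log axis (x), with genes ordered by subfamily; filled symbols are knockouts and open symbols controls, and shapes mark the letters. Kcna6, Kcnd2, Kcnj4 and Kcnk2 had the highest means over the 6 libraries, at 18.9 to 29.3 CPM per kb.

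The inward rectifier genes Kcnj4, Kcnj3 and Kcnj9 had the 3 lowest p of the 59 tested genes in edgeR. Of 15 Kcnj genes 11 were tested, with 7 lower and 4 higher in the knockout (median log2 change -0.22). These 3 were among the 7 genes with an unadjusted p under 0.05. They made up 27.3% of the tested Kcnj genes, a share close to the 28.6% among the tested Kcnk genes (against 3.81% of all genes lower). Summed over the subfamily, the level was 43.3, 36.4 and 42.4 CPM per kb in knockouts A, B and C, against 49.6, 52.4 and 47.6 CPM per kb in controls A, B and C. The groups did not overlap in this sum, of which Kcnj4 alone made up 34.7 to 48.1% in the 6 libraries. Of the 17 subfamilies, only the Kcne sum was also without overlap.

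Kcnj4 encodes a strong inward rectifier of forebrain neurons that helps to hold the resting potential (ENSMUSG00000044216, GRCm38 chromosome 15, 79483714 to 79505241, minus strand). It was at 41.0, 27.2 and 39.1 CPM in knockouts A, B and C, against 49.2, 54.3 and 45.2 CPM in controls A, B and C. Each knockout lay below each control, with knockout B farthest down and control B highest. The means were 35.7 ± 7.47 CPM in knockouts and 49.6 ± 4.57 CPM in controls (SD, n = 3 each). Its log2 change of -0.47 ± 0.15 (SE, 95% interval -0.78 to -0.16) had an edgeR adjusted p of 0.473, and 0.0615 with the letter as a block, the smallest of the 59 genes in each fit. Without knockout B the change was -0.31. The difference within letters was -0.27, -1.0 and -0.21 for A, B and C. In the fit with the letter as a block, leaving out letter A or letter C brought the adjusted p to 0.0142 (log2 change -0.59) and 0.00906 (-0.62), and leaving out letter B to 0.447 (-0.23). Kcnj4 made up 43.9, 34.7 and 42.8% of the summed Kcnj level in knockouts A, B and C, against 46.1, 48.1 and 44.2% in controls A, B and C.

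Kcnj2 and Kcnj12 encode the other strong inward rectifiers with reads enough for a test. Kcnj2 followed the letters more than the genotype, at 3.70, 12.5 and 6.13 CPM in knockouts A, B and C, against 7.35, 12.3 and 9.17 CPM in controls A, B and C. Its log2 change was -0.35 ± 0.43 (SE, edgeR adjusted p = 0.922, 0.356 with the letter as a block), and for Kcnj12 it was -0.22 ± 0.33. Per kilobase the Kcnj4 level was 16.5 ± 11.2 times that of Kcnj2 in knockouts and 13.5 ± 3.02 times in controls (SD, n = 3 each).

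Kcnj3, Kcnj9, Kcnj6 and Kcnj5 encode the subunits of the channels that G-protein beta-gamma dimers open after inhibitory receptors are activated. Kcnj3, an obligate partner in most of these channels in the brain (ENSMUSG00000026824, chromosome 2, 55435970 to 55598145, plus strand), was at 38.6, 35.8 and 35.1 CPM in knockouts A, B and C, against 44.3, 50.5 and 45.9 CPM in controls A, B and C. Its partner Kcnj9 (ENSMUSG00000038026, chromosome 1, 172320501 to 172329318, minus strand) was at 14.0, 11.1 and 10.9 CPM in knockouts A, B and C, against 18.3, 15.1 and 15.7 CPM in controls A, B and C. For both genes every knockout lay below every control and below the control of its letter. The log2 change was -0.36 ± 0.11 (SE, 95% interval -0.60 to -0.12) for Kcnj3 and -0.45 ± 0.16 (95% interval -0.79 to -0.11) for Kcnj9. The edgeR adjusted p was 0.480 and 0.574 for these genes, and 0.114 and 0.161 with the letter as a block. Kcnj3 stood at 2.52 ± 0.22 times the Kcnj9 level per kilobase in knockouts and 2.38 ± 0.38 times in controls (SD, n = 3 each), a difference within the spread of either group. Kcnj6 was scarce, at 1.34, 1.11 and 1.25 CPM in knockouts A, B and C, against 1.21, 0.744 and 0.917 CPM in controls A, B and C, with overlap. Kcnj5 was at 0.949 ± 0.631 CPM in knockouts and 1.22 ± 0.372 CPM in controls (SD, n = 3 each). Kcnj10, which lies 11891 bases from Kcnj9 on the opposite strand and encodes the main inward rectifier of astrocytes, was at 11.2, 11.5 and 13.4 CPM in knockouts A, B and C, against 10.2, 10.7 and 11.5 CPM in controls A, B and C, with a log2 change of 0.16 ± 0.16 (SE).

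Kcnj16, which joins Kcnj10 in glial channels, had a log2 change of 0.07 ± 0.27 (SE). The pore subunits of the ATP-sensitive channels, Kcnj11 of neurons and Kcnj8 of vascular mural cells, had log2 changes of 0.06 ± 0.15 and -0.02 ± 0.22 (SE), with overlap in both. Kcnj13, Kcnj15, Kcnj1 and Kcnj14 had between 2 and 25 reads over all libraries and were not tested.

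**Figure D3:**
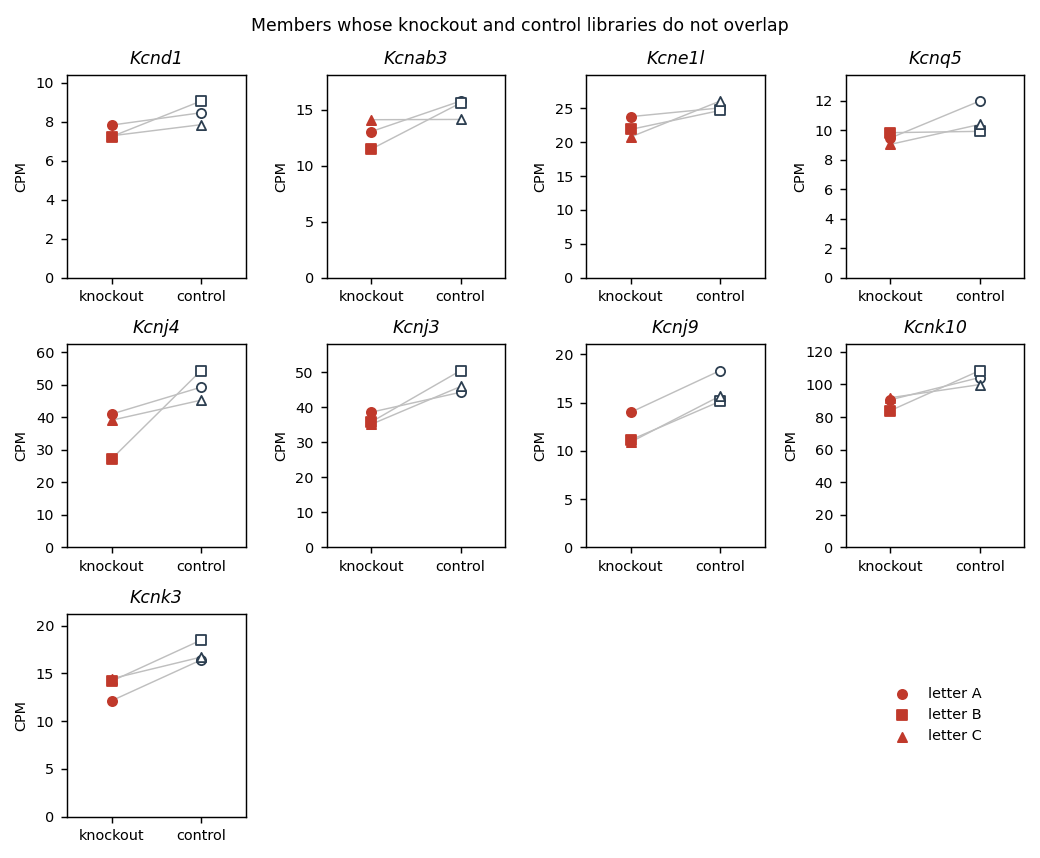
CPM in each library for 9 of the genes whose knockout and control libraries did not overlap, knockout left and control right on each panel with its own y axis from 0; grey lines join libraries of the same letter. In all 9 panels the knockouts lie below the controls, with the widest relative gap for Kcnj4 in letter B.

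Leak channels of the tandem-pore family gave 2 more genes with an unadjusted p under 0.05. Of 14 Kcnk genes 7 were tested, 5 lower and 2 higher in the knockout (median log2 change -0.17). Kcnk2 and Kcnk10 encode channels of the TREK group, which respond to lipids, stretch and temperature, and they were the leading leak channel genes of this tissue. Kcnk10 (chromosome 12, 98429437 to 98578310, minus strand) was at 90.6, 83.9 and 91.8 CPM in knockouts A, B and C, against 104, 109 and 99.9 CPM in controls A, B and C. Its groups did not overlap, and the log2 change was -0.23 ± 0.10 (SE, 95% interval -0.44 to -0.03; edgeR adjusted p = 0.666, 0.301 with the letter as a block). Kcnk2 overlapped, at 91.7, 114 and 81.0 CPM in knockouts A, B and C, against 97.3, 89.7 and 85.4 CPM in controls A, B and C, with a log2 change of 0.08 ± 0.12 (SE). Knockout B held the highest Kcnk2 value and the lowest Kcnk10 value of the 6 libraries. Per kilobase, Kcnk2 was at 1.93 ± 0.44 times the Kcnk10 level in knockouts and at 1.55 ± 0.10 times in controls (SD, n = 3 each).

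Kcnk3 encodes an acid-sensitive leak channel (chromosome 5, 30588170 to 30625271, plus strand). It was at 12.1, 14.2 and 14.4 CPM in knockouts A, B and C, against 16.4, 18.5 and 16.7 CPM in controls A, B and C, without overlap. The log2 change was -0.34 ± 0.15 (SE, 95% interval -0.65 to -0.02; edgeR adjusted p = 0.705, 0.325 with the letter as a block). Kcnk9, its acid-sensitive relative, had 1 read over all libraries. Kcnk1 was at 15.8 ± 3.04 CPM in knockouts and 16.1 ± 1.54 CPM in controls (SD, n = 3 each). Kcnk12, Kcnk13 and Kcnk6 lay between 0.620 and 2.75 CPM in every library, with log2 changes of -0.48 ± 0.38, -0.17 ± 0.38 and 0.41 ± 0.44 (SE), and could not show a change of this size at their depth. The other 7 Kcnk genes had 0 to 30 reads over all libraries.

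Subunits of the M current, which opens slowly below the spike threshold and limits repetitive firing, were lower on average in the knockout for all 4 tested Kcnq genes (median log2 change -0.17). Kcnq3 had 84.0 ± 6.92 CPM in knockouts and 93.5 ± 6.19 CPM in controls (SD, n = 3 each), a log2 change of -0.15 ± 0.10 (SE, edgeR adjusted p = 0.824). Its knockout and control libraries overlapped. Kcnq5 was at 9.47, 9.83 and 9.04 CPM in knockouts A, B and C, against 11.98, 9.92 and 10.4 CPM in controls A, B and C, and knockout B and control B all but met. Its log2 change was -0.19 ± 0.17 (SE, edgeR adjusted p = 0.871). Kcnq1, the cardiac and epithelial member, had 27 reads over all libraries and was not tested.

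Ether-a-go-go channels divided evenly, with 3 of 6 tested Kcnh genes lower and 3 higher in the knockout. Kcnh3, a forebrain member (chromosome 15, 99224861 to 99242817, plus strand), was at 17.9, 26.1 and 17.5 CPM in knockouts A, B and C, against 22.9, 27.5 and 30.9 CPM in controls A, B and C. Knockout B lay above control A, so the groups overlapped, although every knockout was below the control of its letter. The log2 change was -0.40 ± 0.17 (SE, 95% interval -0.76 to -0.05), with an edgeR adjusted p of 0.666, and 0.149 with the letter as a block. Without knockout B the change was -0.61 on genotype alone. In the block fit it passed when letter B was left out (log2 change -0.59, adjusted p = 0.0211), and without A or C the adjusted p was 0.183 and 0.873. Kcnh1 had a log2 change of -0.28 ± 0.14 (SE) and an adjusted p of 0.728 in edgeR. Kcnh4, Kcnh2 and Kcnh8 were higher on average, with values of 0.11 ± 0.18, 0.19 ± 0.23 and 0.17 ± 0.22 (SE), and Kcnh7 had -0.09 ± 0.15.

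Shaker-type subunits (Kcna), which carry low-threshold delayed rectifier current in axons, were dominated by Kcna6. It was at 200.1, 150.4 and 176 CPM in knockouts A, B and C, against 194, 146 and 180.2 CPM in controls A, B and C (chromosome 6, 126708329 to 126740674, minus strand). The order of the letters was the same in both groups, B below C and C below A, and the log2 change was 0.02 ± 0.13 (SE, 95% interval -0.25 to 0.29). Kcna6 made up 79.4 to 83.1% of the summed Kcna level in knockouts and 76.5 to 80.8% in controls. It exceeded Kcna2, a main axonal subunit of the mature brain, 12.2 ± 1.87 times per kilobase in knockouts and 10.5 ± 2.09 times in controls (SD, n = 3 each). Kcna2 had a log2 change of -0.21 ± 0.13, Kcna1 of -0.09 ± 0.19, Kcna4 of -0.10 ± 0.23 and Kcna5 of -0.15 ± 0.33 (SE), with overlap in all. Kcna3, known from lymphocytes and microglia as well as neurons, had 0 reads in the 3 knockouts and 6 in the 3 controls. A count of 0 allows up to 3 reads, or 0.278 to 0.312 CPM per knockout library, so no fold was formed.

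Delayed rectifiers of the Shab type (Kcnb) sit on the soma and proximal dendrites. Kcnb2 was at 44.1, 40.5 and 35.8 CPM in knockouts A, B and C, against 40.9, 38.8 and 39.5 CPM in controls A, B and C, with overlap and a log2 change of 0.02 ± 0.12 (SE, 95% interval -0.23 to 0.26). The electrically silent subunits Kcnf, Kcng, Kcns and Kcnv form no channel alone and modify Kcnb channels. Kcng1 was at 19.96, 14.7 and 17.0 CPM in knockouts A, B and C, against 27.3, 20.8 and 18.3 CPM in controls A, B and C. Knockout A lay above control C, and the log2 change was -0.37 ± 0.17 (SE, edgeR adjusted p = 0.708, 0.255 with the letter as a block). Without control A the change was -0.19. Kcnv1 was at 20.6, 17.0 and 19.7 CPM in knockouts A, B and C, against 32.0, 19.4 and 20.98 CPM in controls A, B and C, and control A stood well above the others. Its log2 change was -0.34 ± 0.18 (SE, edgeR adjusted p = 0.739), and without control A it was -0.08. Kcnf1, Kcns1, Kcns3 and Kcng2 overlapped, with log2 changes of -0.07 ± 0.16, -0.11 ± 0.24, 0.47 ± 0.47 and 0.20 ± 0.41 (SE); the last pair lay between 0.623 and 2.44 CPM in every library. Kcns2, Kcng3, Kcng4 and Kcnv2 were not tested, with 40, 2, 5 and 0 reads over all libraries.

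Shaw-type subunits (Kcnc) open at high voltage and let interneurons fire fast, and 3 of the 4 were higher on average in the knockout (median log2 change 0.16). Kcnc2 was at 16.9, 17.3 and 14.6 CPM in knockouts A, B and C, against 13.2, 14.9 and 13.1 CPM in controls A, B and C, where knockout C lay just under control B, and its log2 change was 0.25 ± 0.15 (SE, edgeR adjusted p = 0.796). Kcnc1, the highest of the family, had 56.4 ± 6.47 CPM in knockouts and 53.0 ± 1.07 CPM in controls (SD, n = 3 each), and Kcnc4 had 18.9 ± 4.23 CPM in knockouts and 19.2 ± 2.78 CPM in controls. Of 12 interneuron markers 11 were higher on average in the knockout too, with a sum of 1757 to 2108 CPM in knockouts against 1677 to 1784 CPM in controls. With the letter as a block 1 of the 12 was called higher in edgeR (against 0.329% of all genes). It was Gad2, an enzyme of GABA synthesis, at an adjusted p of 0.0191 in that edgeR fit. On genotype alone its log2 change was 0.51 ± 0.16 (SE, edgeR adjusted p = 0.539). The part of these markers in the Kcnc values was not tested.

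Shal-type subunits (Kcnd) carry the transient A-type current of dendrites, together with the calcium-binding Kcnip subunits. Kcnd2 (chromosome 6, 21215503 to 21729805, plus strand) was at 112, 87.7 and 116 CPM in knockouts A, B and C, against 118, 94.3 and 108 CPM in controls A, B and C, with a log2 change of -0.02 ± 0.12 (SE, 95% interval -0.28 to 0.24). Its level per kilobase was 6.34 ± 0.73 times that of Kcnd3 in knockouts and 6.63 ± 1.02 times in controls (SD, n = 3 each), within the spread. X-linked Kcnd1 was scarcer, at 7.82, 7.23 and 7.27 CPM in knockouts A, B and C, against 8.45, 9.05 and 7.84 CPM in controls A, B and C. Knockout A and control C all but met, and the log2 change was -0.18 ± 0.19 (SE, edgeR adjusted p = 0.893). Of the Kcnip genes, Kcnip2 had the highest level per kilobase, 14.2 CPM per kb over the 6 libraries. Not scaled to length, it was at 51.0, 39.0 and 49.1 CPM in knockouts A, B and C, against 51.7, 46.8 and 57.6 CPM in controls A, B and C, a log2 change of -0.17 ± 0.13 (SE). Kcnip1, a subunit known from interneurons, had 62.0, 48.2 and 59.1 CPM in knockouts A, B and C, against 51.0, 48.0 and 50.1 CPM in controls A, B and C, and its log2 change was 0.18 ± 0.12 (SE, edgeR adjusted p = 0.816). Kcnip4 and Kcnip3 had log2 changes of -0.27 ± 0.16 and -0.09 ± 0.16.

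Among the remaining auxiliary genes, the cytoplasmic beta subunits of the Shaker channels were lower or level in the knockout. Kcnab3 was at 13.1, 11.5 and 14.1 CPM in knockouts A, B and C, against 15.8, 15.6 and 14.2 CPM in controls A, B and C, with knockout C and control C nearly equal. The log2 change was -0.24 ± 0.15 (SE, edgeR adjusted p = 0.816), beside -0.01 ± 0.14 for Kcnab2 and -0.11 ± 0.20 for Kcnab1. Kcne1l, an X-linked single-span subunit, was at 23.8, 21.9 and 20.8 CPM in knockouts A, B and C, against 25.1, 24.7 and 26.1 CPM in controls A, B and C. No knockout reached a control, and the log2 change was -0.19 ± 0.13 (SE, 95% interval -0.46 to 0.08; edgeR adjusted p = 0.823). Kcne4 lay between 0.515 and 2.18 CPM in every library (log2 change -0.20 ± 0.51, SE), and Kcne1, Kcne2 and Kcne3 had 1, 20 and 7 reads over all libraries. Kcnrg, described in human as a cytoplasmic protein that reduces potassium current, had a log2 change of -0.18 ± 0.32 (SE). Kcnu1, the potassium channel of sperm, was at 5.45, 9.92 and 6.13 CPM in knockouts A, B and C, against 8.35, 9.55 and 7.13 CPM in controls A, B and C, with overlap and a log2 change of -0.21 ± 0.24 (SE).

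**Figure D4:**
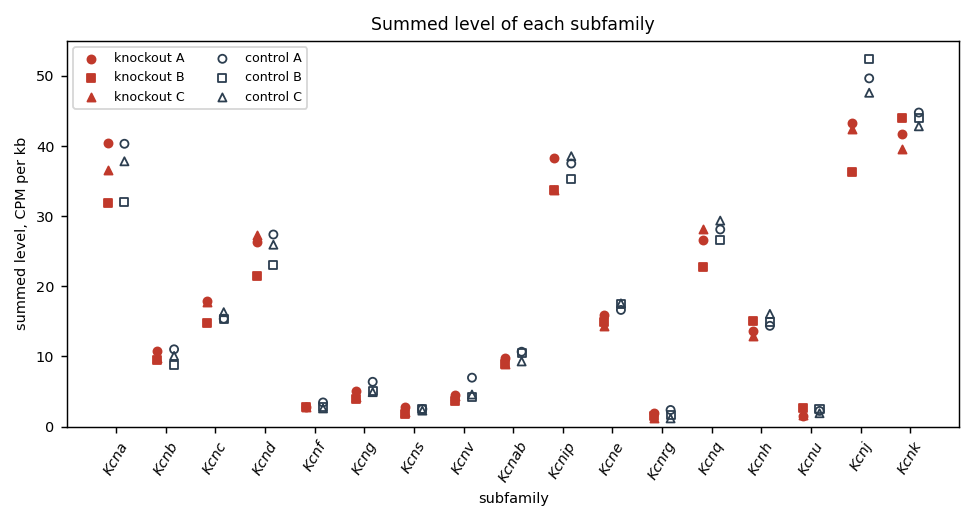
Summed level of each subfamily, in CPM per kb of merged exons (y axis from 0), in each library; filled symbols are knockouts and open symbols controls, and shapes mark the letters. The Kcnj sum lies at 36.4 to 43.3 CPM per kb in knockouts and 47.6 to 52.4 in controls. The Kcne sum, nearly all Kcne1l, lies at 14.3 to 15.9 in knockouts and 16.6 to 17.6 in controls. Both are without overlap, and the groups overlap in the sums of all others of the 17 subfamilies.

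In all, 24 genes of the 83 were too scarce for a test, with at most 40 reads over the 6 libraries. No read was counted for Kcna7, Kcna10, Kcnk15, Kcnk16, Kcnk18 and Kcnv2, where 3 counts over all libraries would correspond to 0.0518 CPM.

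Proteins that anchor, traffic or regulate these channels gave 12 genes higher and 21 lower of 33 tested, a median log2 change of -0.028, and 0 called in either direction in edgeR, with or without the letter as a block. Knockout and control libraries did not overlap for 2 higher and 3 lower genes of the 33 (against 5.89% and 6.28% of all genes). At an unadjusted p under 0.05 in edgeR the list had 1 lower gene of the 33 (against 3.81% of all genes) and 0 higher ones (against 3.19%). That gene was Gnb2, a G-protein beta subunit, at 594, 662 and 656 CPM in knockouts A, B and C, against 624, 1014 and 894 CPM in controls A, B and C. Knockouts B and C lay above control A, and the log2 change was -0.40 ± 0.15 (SE, edgeR adjusted p = 0.620, 0.0591 with the letter as a block). Abcc9, the sulfonylurea receptor that pairs with Kcnj8 in mural cells, was at 7.62, 5.84 and 5.40 CPM in knockouts A, B and C, against 3.92, 4.96 and 4.69 CPM in controls A, B and C, without overlap and with a log2 change of 0.48 ± 0.24 (SE, edgeR adjusted p = 0.728). The sodium-potassium pump, which builds the potassium gradient, had 4 genes higher and 5 lower of 9 tested, a median log2 change of -0.0019 and 0 called in edgeR, with 0 at an unadjusted p under 0.05. Atp1b1, the main beta subunit of neurons, had 535 ± 25.2 CPM in knockouts and 601 ± 37.4 CPM in controls (SD, n = 3 each) without overlap, a log2 change of -0.17 ± 0.10 (SE, edgeR adjusted p = 0.792). It was the only gene of the 9 without overlap, where 6.28% of all genes were lower without overlap.

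Cell type markers also differed on average between the groups. Of 12 excitatory neuron markers 7 were lower and 5 higher on average in the knockout. In edgeR on genotype alone 0 were called, with a log2 change of -1.05 for Emx1 (adjusted p = 0.179) and -0.48 for Slc17a7 (0.309). With the letter as a block 3 were called lower in edgeR (against 0.516% of all genes), among them Emx1 and Slc17a7. The interneuron marker Gad2, described with the Kcnc genes, was called higher in that fit. Emx1 is also the gene named in the Cre label. Markers of the oligodendrocyte lineage summed to 251 to 270.3 CPM in knockouts and 282 to 334 CPM in controls, with 7 of 8 lower. Sums for progenitors (456 to 485 CPM in knockouts, 402 to 458 CPM in controls), microglia (149.9 to 193, against 129 to 162 CPM in controls), endothelium (229.5 to 246, against 193 to 237) and mural cells (135 to 150.5, against 117 to 126) were higher on average. Astrocyte markers summed to 826 to 908 CPM in knockouts and 840 to 926 CPM in controls, and striatal markers to 467 to 513 CPM in knockouts and 425 to 523 CPM in controls. Red cell markers summed to 398 to 479 CPM in knockouts and 387 to 545 CPM in controls. Choroid plexus markers summed to 16.3 to 43.9 CPM in knockouts and 9.16 to 161 CPM in controls, the highest being control B. No marker on any list was at 0 in all libraries, and the part of these lists in the channel values was not tested.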

How the data were processed

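The authors deposited raw read counts per gene, not normalised, with 1 table for each library as STAR writes them. Per the labels' protocols, TRIzol RNA freed of DNA by DNase went into stranded Lexogen SENSE libraries for an Illumina HiSeq. The aligner STAR 2.5.4, GRCm38 and mm10 stand in the list of tools and builds per the submitters' processing notes. Annotation release and read filters: not given in the sources used here. The column with reads on the sense strand was used. Multi-mapping reads were listed as 0, so near-identical genes are undercounted. Summary lines stayed out of library sizes and tests: 26.1 to 27.7% of reads were unmapped and 22.5 to 27.9% of mapped reads lay outside exons. Symbols, coordinates and merged exon lengths came from GENCODE M21, in which 52403 of 52550 identifiers were found.

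The counts entered edgeR 4.0.16 under R 4.3.3 (filterByExpr, 14913 genes; TMM factors 0.979 to 1.04; robust quasi-likelihood F-test, two-sided, Benjamini-Hochberg adjusted p under 0.05 over all genes). DESeq2 1.42.0, factors by median of ratios, no filter, counts on either strand and leaving out libraries were alternatives. CPM used TMM-scaled sizes, and the floor of 3 counts, 0.278 to 0.372 CPM per library, covers counting error only. Sums per subfamily include untested genes. The edgeR fit on genotype alone was tested on simulated counts without letter effects. The fits with the letter as a block and those in DESeq2 were not.

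Both genotypes have libraries A, B and C. Deviations from the group means correlated at 0.417, 0.342 and 0.211 for the same letter, so pairing by letter was adopted from the data. Between letters the correlations were at most -0.0310, but centring on the group mean makes these negative on average when same-letter values are positive. The labels do not say what a letter marks. Within a group, every pair of libraries differed beyond counting noise (chi-square over degrees of freedom 7.04 to 11.97).

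The genes and lists were chosen with earlier results of these data known. Named were Slc7a5, any called gene, the 6 lowest p in each direction, the highest gene per kb of each subfamily and those without overlap; from partner lists, called genes or the 2 lowest p. Some genes that this rule selects are not reported here. Other genes stand as levels or log2 changes for completeness of a subfamily.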

Additional observations from a re-analysis of the deposited data

How the results depend on the processing

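Precision was limited by 3 libraries a group and, for the genes at few CPM, by depth. The number of genes called stayed at 0 in both directions in edgeR with the letter as a block, without the filter on low counts, with median of ratios factors and with counts on either strand, in DESeq2 with and without the block, and with any 1 library left out. In the fit with the letter as a block, leaving out both libraries of 1 letter called 1 gene lower each time, Kcnj4 without A or C and Kcnh3 without B. The median log2 change of the tested genes was -0.115 with the replicate block, -0.122 in DESeq2 with the replicate block and from -0.144 (without control C) to -0.066 (without knockout B) with 1 library left out. Slc7a5 passed in DESeq2 (-1.26, adjusted p = 4.30e-04) and in edgeR with unfiltered genes (-1.25, adjusted p = 5.02e-11), but not with the replicate block in edgeR (-1.22, adjusted p = 0.421) or DESeq2 (-1.23, adjusted p = 0.465). With the filter the log2 change in edgeR was also -1.25, at an adjusted p of 0.400. The effect size was thus unchanged, and what lowered the adjusted p without the filter was not tested. Named genes kept their sign in 279 of 288 combinations of gene and setting. The settings refit the same libraries, and many of these genes were named for a low p in the main fit. Agreement in sign was thus favoured in advance. The 9 reversals came with 1 library left out, where the log2 change ran from -0.089 to 0.120 for Kcna6, -0.0016 to 0.168 for Kcnc1, -0.101 to 0.098 for Kcnd2, -0.156 to 0.062 for Kcnf1, -0.071 to 0.179 for Kcnk2, -0.399 to 0.135 for Kcnrg and -0.282 to 0.055 for Kcns1. With no change of sign, 1 library left out moved the value by over 1.5 times for Kcnv1 (-0.47 to -0.08), Kcng1 (-0.49 to -0.19), Kcnh3 (-0.61 to -0.30), Kcnj4 (-0.58 to -0.31), Kcnip2 (-0.24 to -0.05), Kcnip1 (0.11 to 0.29), Kcnab3 (-0.31 to -0.16), Kcnj10 (0.07 to 0.21), Kcnk6 (0.26 to 0.70), Kcns3 (0.17 to 0.76) and Kcnu1 (-0.52 to -0.05). The causes were not tested. Over all genes, edgeR called 3 higher and 2 lower, against 49 and 77 with the block, 35 and 36 without the filter, and 1 to 8 and 0 to 3 with 1 library left out.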

Other observations

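Noncoding genes at the channel loci lay outside the rule. Kcnq1ot1, the imprinted antisense transcript inside Kcnq1 (GRCm38 chromosome 7, 143203458 to 143296549, minus strand), was at 204, 209.9 and 198 CPM in knockouts A, B and C, against 198, 126 and 129 CPM in controls A, B and C. Control A lay inside the range of the knockouts, and controls B and C lay far below. Its log2 change was 0.43 ± 0.15 (SE), with an edgeR adjusted p of 0.597, and 0.0361 with the letter as a block. It spans 93092 bases without introns, and reads outside exons were also more frequent in knockouts (27.4 to 27.9%) than in controls (22.5 to 26.5%); their part in the value was not tested. Kcnmb4os2, an antisense transcript at a calcium-activated channel gene, was at 12.1, 12.1 and 9.66 CPM in knockouts A, B and C, against 16.003, 16.7 and 12.4 CPM in controls A, B and C. Its groups did not overlap, and the log2 change was -0.41 ± 0.17 (SE, edgeR adjusted p = 0.666, 0.233 with the letter as a block).

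Reads on the strand opposite to a channel gene were few. Kcnh7 had the most, 173 beside 1431 sense reads over all libraries, and Kcnab1 had 73 beside 844.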
